A study of Homo sapiens with 9 samples.

Results

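Aminoacyl-tRNA synthetases are the enzymes that load each transfer RNA with its amino acid. The genes described here are 35 listed synthetases, 17 that serve the cytosol, 16 that serve mitochondria and 2 (GARS1 for glycine and KARS1 for lysine) whose single gene serves both. A gene was included through every probe set annotated to it and to no other gene, which gave 67 of the 54675 probe sets on the array and 32 of the 35 genes, all 32 of which passed the filter on low signal. The methionine enzyme MARS1, the glutamine enzyme QARS1 and the mitochondrial threonine enzyme TARS2 had only probe sets that also list a microRNA gene and are not analysed here. PANC-1, an established human line grown from a pancreatic adenocarcinoma, was the source of all RNA, which was hybridised to 9 Affymetrix HG-U133 Plus 2.0 arrays. A day after plating, the medium was replaced by one that held charcoal-filtered serum, and cells were kept for 72 hours in vehicle (DMSO, 3 arrays) or in TVB-3166, an inhibitor of fatty acid synthase, at 0.1 µM (3 arrays) or 1.0 µM (3 arrays). All groups share the cell line and the treatment medium. The vehicle level is not settled, since the labels give 0.05% DMSO for the 3 DMSO samples, 0.5% in the descriptions of 2 of those 3 and 0.5% alone for the treated samples, so an equal vehicle level in all groups cannot be taken from them. Groups follow the sample titles, since the treatment field of the 1.0 µM samples reads 0.1 µM and the description of 1 of the 0.1 µM samples reads DMSO. Replicates are called triplicate treatments, and nothing says that they were separate cultures, so p-values measure the spread between these arrays, which may be technical.

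Cytosolic synthetases supply charged tRNA to the ribosomes that translate nuclear messages, and several of them sit in a multi-synthetase complex held together by scaffold proteins. Mitochondrial synthetases are encoded in the nucleus, are imported, and charge the tRNAs for the few proteins made inside the organelle. When a tRNA stays uncharged the kinase GCN2 phosphorylates the initiation factor eIF2, which lowers general translation and raises the transcription factor ATF4. ATF4 is known to raise genes of amino acid uptake and synthesis together with many cytosolic synthetase genes, through sites called C/EBP-ATF response elements.

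Median signal was 66.7 to 79.1 units on the 9 arrays, and Pearson's r over all tested genes, which are not independent, was 0.981 to 0.9899 between arrays of one group. The signal of 9 hybridisation spike probe sets, RNA added at a set amount, parted the arrays into a lower set of 5 and a higher set of 4, which held DMSO replicate 2, 0.1 µM replicates 1 and 3 and 1.0 µM replicate 2. Nothing in the labels says that these sets are batches. Values within each set are given below for the medians and for some genes only. The epithelial keratins KRT8, KRT18 and KRT19 were bright, with DMSO means of 19993, 21984 and 20399 signal units, against 318 for KRT7. The summed signal over 6 duct epithelium markers (KRT7, KRT8, KRT18, KRT19, SOX9 and EPCAM) comes mostly from those bright keratins. It was 55898 to 77351 in DMSO, 50259.6 to 69813 at 0.1 µM and 40195 to 56343 at 1.0 µM. KRT8 (−0.86) and KRT19 (−0.90) fell and KRT7 (1.06) rose at 1.0 µM as log2 changes called by limma, while KRT18 (−0.30), SOX9 (0.28) and EPCAM (−0.09) were not called. The part of the 3 called markers in the results was not tested. Markers of acinar, endocrine, immune, endothelial and stromal cells reached at most 224 signal units on any array. Summed over 3 genes each, acinar and endocrine markers read 9.30 to 52.0 in DMSO, 10.2 to 29.4 at 0.1 µM and 17.6 to 41.1 at 1.0 µM, immune markers 66.6 to 170.0, 109 to 188 and 50.6 to 96.9, endothelial markers 189 to 298, 196 to 216 and 221 to 243, and fibroblast markers 105 to 164, 127 to 171 and 106 to 180.3. Prostate markers were included because the design text also names the prostate line 22Rv1, which is not analysed here. Their sum over 3 genes was 1657 to 1765 in DMSO, 1067 to 1306 at 0.1 µM and 934.9 to 1005 at 1.0 µM. KLK3 averaged 471 signal units in DMSO and 472 at 1.0 µM, and TMPRSS2 fell from 1171 to 437.

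Most tested cytosolic synthetase genes were called higher at 1.0 µM TVB-3166, and no mitochondrial one was called higher at either dose. At 1.0 µM against DMSO 10 of the 15 tested cytosolic genes and 1 of the 2 genes serving both compartments rose, while none of the 15 tested mitochondrial genes rose and 3 of them fell. A call here is an adjusted p under 0.05 from limma's moderated test, with Benjamini-Hochberg adjustment across the 13948 genes tested; by that rule 23.2% of all genes were called, 12.3% higher and 11.0% lower, against 14 of the 32 synthetase genes. The median log2 change was 0.43 over the cytosolic and −0.09 over the mitochondrial genes, against 0.01 over all tested genes. Log2 changes are differences in log2(signal + 16), given with limma's standard error and n = 3 arrays per group. At an unadjusted p under 0.05 the mitochondrial genes counted 2 higher (PARS2 and VARS2) and 3 lower, and the cytosolic genes 10 higher and 1 lower (FARSA). At 0.1 µM 7 of 15 cytosolic genes and 1 of 2 shared genes rose, where 6.89% of all genes were called higher and 5.11% lower, and none of the 15 mitochondrial genes was called in either direction (0 higher and 2 lower, EARS2 and IARS2, at an unadjusted p under 0.05). The medians at 0.1 µM were 0.47 over the cytosolic genes, −0.14 over the mitochondrial genes and −0.01 over all tested genes. The arrays of 12 members lay wholly above the DMSO arrays at 1.0 µM (19.2% of all genes did) and of 12 at 0.1 µM (15.5%), and those of 4 (18.0%) and 5 (14.6%) wholly below them, together 16 of 32 at 1.0 µM where 37.2% of all genes had no overlap. Those above were at each dose the 10 cytosolic risers, GARS1 and the mitochondrial VARS2. In a bulk extract, more transcript per cell cannot be told apart from a change in the mix of cells.

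**Figure D1:**
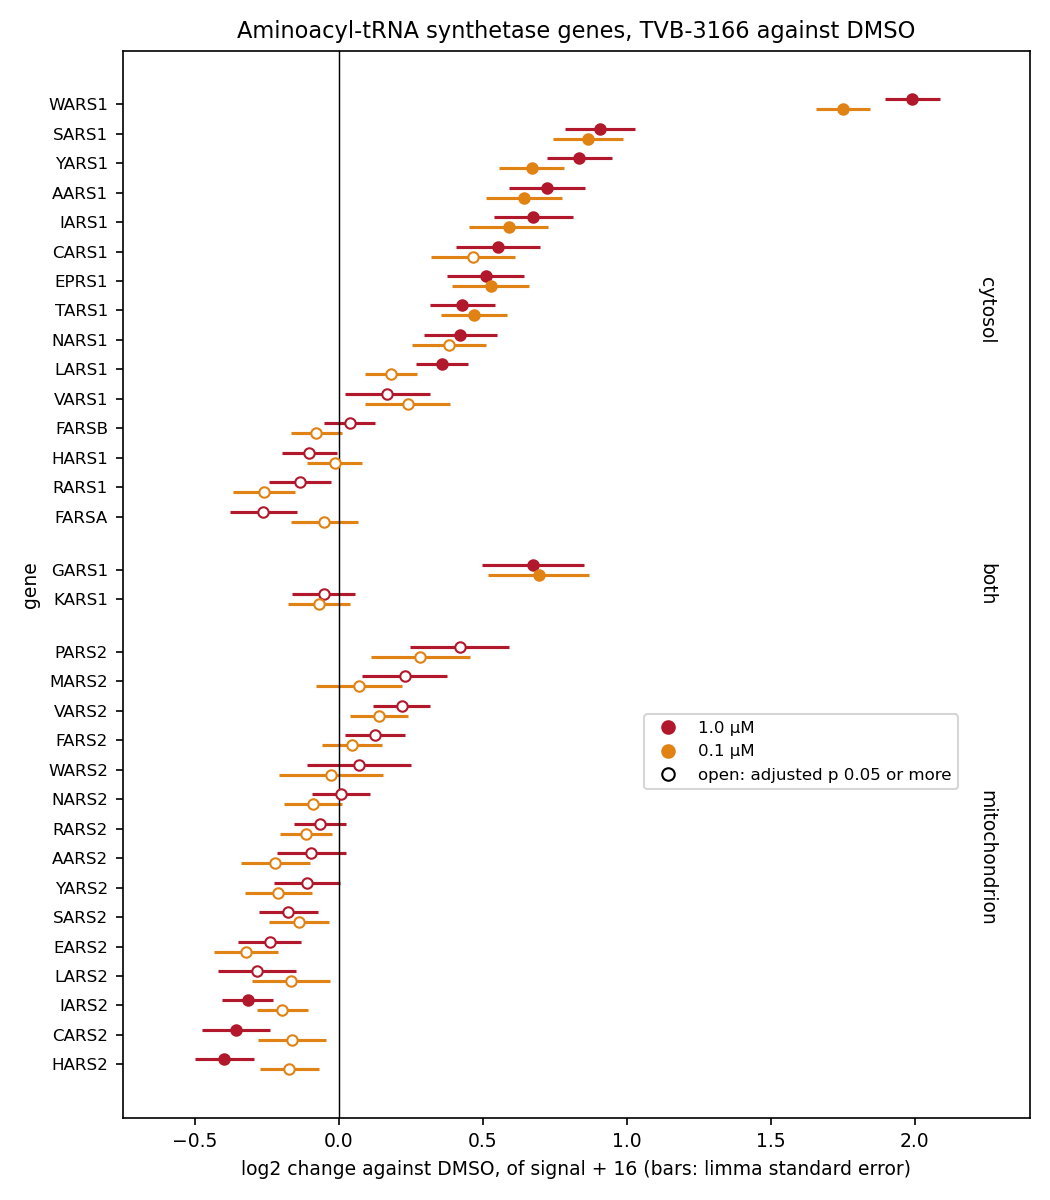
Log2 change against DMSO (x axis, log2 units of signal + 16, bars are limma standard errors, n = 3 arrays per group) of the 32 tested synthetase genes, in red at 1.0 µM and orange at 0.1 µM, with open points for an adjusted p of 0.05 or more. The filled points right of 0 are 10 cytosolic genes and GARS1, led by WARS1 at 1.99, and the filled points left of 0 are IARS2, CARS2 and HARS2.

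The tryptophan enzyme gene WARS1 (Entrez gene 7453, chromosome 14, 100333790 to 100376327 on GRCh38.p14) had the largest change of the family. WARS1 read 1678, 1604 and 1750.2 in DMSO, 5227, 6381 and 5516 at 0.1 µM and 6583, 6829.6 and 6748 at 1.0 µM. All 6 treated arrays were far above the 3 DMSO arrays, and the 1.0 µM arrays lay just above the 0.1 µM arrays. The log2 change was 1.99 ± 0.09 at 1.0 µM (adjusted p = 8.37e-08 by limma), a fold of 3.98, and 1.75 ± 0.09 at 0.1 µM (adjusted p = 4.92e-07), a fold of 3.37. WARS1 is also known as an interferon gamma-inducible gene. Among 8 listed interferon gamma response genes 3 of the 5 tested rose at both doses, the transcription factor gene IRF1 by 1.83 ± 0.11, the peptide transporter gene TAP1 by 1.25 ± 0.14 and the immunoproteasome gene PSMB9 by 0.73 ± 0.10 at 1.0 µM, and their part in the WARS1 result was not tested.

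SARS1 (Entrez gene 6301, chromosome 1, 109213893 to 109238182), for serine, read 4449.8, 4737 and 4461 in DMSO, 8698, 7456 and 8804 at 0.1 µM and 7602, 10209 and 8023 at 1.0 µM. YARS1 (Entrez gene 8565, chromosome 1, 32775239 to 32817358), for tyrosine, read 4101, 4387 and 4635 in DMSO, 7506, 6347 and 7084 at 0.1 µM and 7036, 9022 and 7509.7 at 1.0 µM. AARS1 (Entrez gene 16, chromosome 16, 70252298 to 70289506), for alanine, read 3419.9, 3693 and 4004 in DMSO, 6219, 5074 and 6136 at 0.1 µM and 5419.8, 7422 and 5692 at 1.0 µM. For each of these 3 genes the treated arrays did not overlap the DMSO arrays at either dose, and the doses overlapped each other. SARS1 rose by 0.91 ± 0.12 at 1.0 µM (adjusted p = 0.000197 by limma) and 0.87 ± 0.12 at 0.1 µM (0.000577). YARS1 rose by 0.84 ± 0.11 (0.000223) and 0.67 ± 0.11 (0.00219), and AARS1 by 0.72 ± 0.13 (0.00178) and 0.64 ± 0.13 (0.00726). In the lower spike set alone YARS1 and AARS1 were not called at 0.1 µM (0.54, adjusted p = 0.0710, and 0.45, adjusted p = 0.135), where that set holds 1 array of the dose and the lone array is assumed to vary like the others.

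IARS1 (Entrez gene 3376, chromosome 9, 92210207 to 92293697), for isoleucine, read 6422, 6934 and 8445 in DMSO, 11996, 9846 and 10901 at 0.1 µM and 10523, 13591 and 10766 at 1.0 µM. GARS1 (Entrez gene 2617, chromosome 7, 30594735 to 30634033), whose transcript provides the glycine enzyme of both compartments, read 8591, 10283 and 9236 in DMSO, 17753, 11836 and 16480.3 at 0.1 µM and 12728, 18957 and 13791 at 1.0 µM. CARS1 (Entrez gene 833, chromosome 11, 3000929 to 3057423), for cysteine, read 10279, 11488 and 10536 in DMSO, 16996, 12661 and 15294 at 0.1 µM and 13738, 19123 and 15004 at 1.0 µM. EPRS1 (Entrez gene 2058, chromosome 1, 219968600 to 220046505) encodes a fused enzyme for glutamate and proline. It read 4114, 4766 and 4172 in DMSO, 6665, 5416 and 6827 at 0.1 µM and 5686, 7507 and 5566 at 1.0 µM. In all 4 genes the treated arrays lay above the DMSO arrays, with the 0.1 µM replicate 2 array the lowest of its group and the 1.0 µM replicate 2 array the highest. IARS1 rose by 0.68 ± 0.14 at 1.0 µM (adjusted p = 0.00374 by limma) and 0.59 ± 0.14 at 0.1 µM (0.0154). GARS1 rose by 0.68 ± 0.18 (0.0159) and 0.69 ± 0.18 (0.0238), and EPRS1 by 0.51 ± 0.13 (0.0161) and 0.53 ± 0.13 (0.0235). CARS1 rose by 0.55 ± 0.15 at 1.0 µM (0.0162) and was at 0.47 ± 0.15 at 0.1 µM, which missed the threshold (0.0589); 8 of 24 alternative settings called it there.

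**Figure D2:**
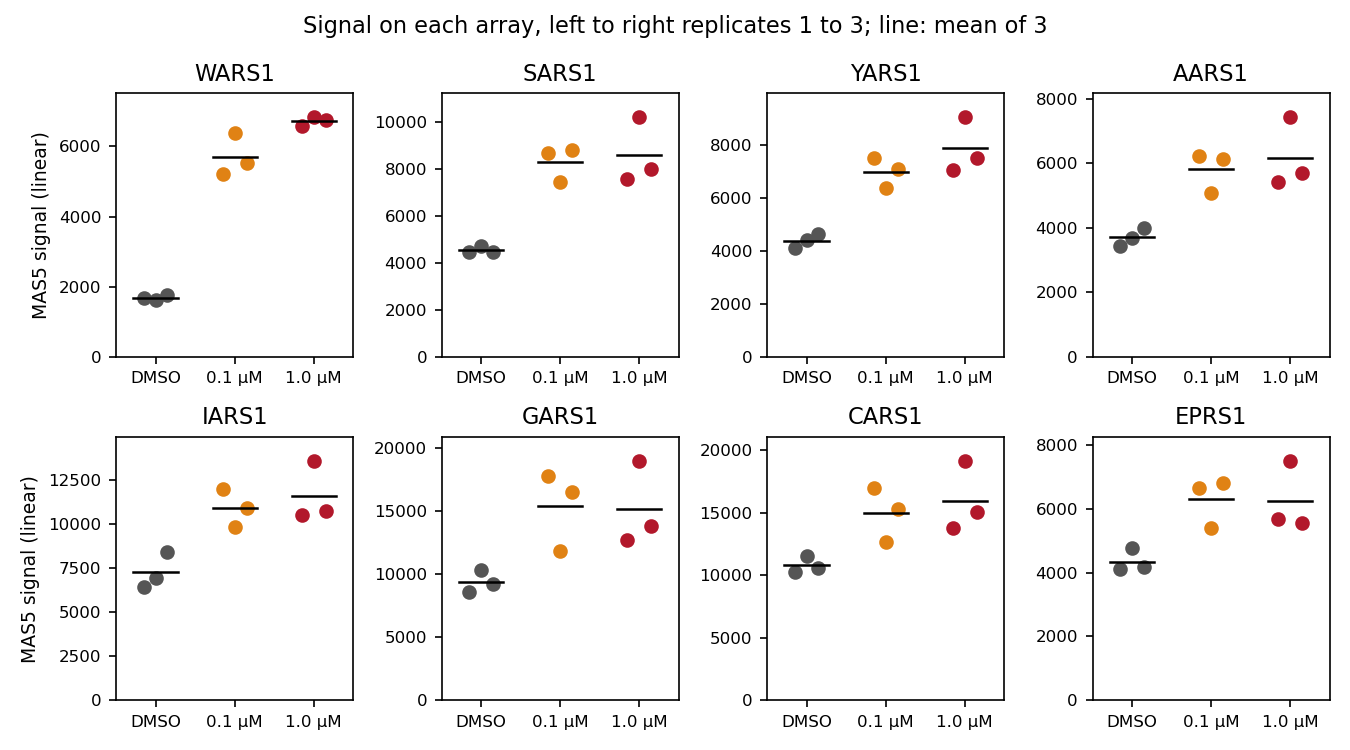
MAS5 signal (y axis, linear scale from 0) on each of the 9 arrays for the 8 cytosolic or shared genes with the largest change at 1.0 µM; points are arrays in the order of replicates 1 to 3 and lines are means of 3. In each panel the 6 treated arrays lie above the 3 DMSO arrays, and only for WARS1 do the 1.0 µM arrays (6583 to 6829.6) all lie above the 0.1 µM arrays (5227 to 6381).

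The remaining risers changed less. TARS1, for threonine, rose by 0.43 ± 0.11 at 1.0 µM (adjusted p = 0.0173 by limma) and 0.47 ± 0.11 at 0.1 µM (0.0196). NARS1, for asparagine, rose by 0.42 ± 0.13 at 1.0 µM (0.0326) and was at 0.38 ± 0.13 at 0.1 µM (0.0768). LARS1, whose product charges leucine tRNA and also senses leucine for the mTORC1 pathway, rose by 0.36 ± 0.09 at 1.0 µM (0.0123) and was at 0.18 ± 0.09 at 0.1 µM (0.236). LARS1 read 4904, 4935 and 4919.5 in DMSO, 5340.4, 5692 and 5715 at 0.1 µM and 6338, 5831 and 6821 at 1.0 µM, and no arrays overlapped between any of the 3 groups. Several of these calls rest on single arrays. Without DMSO replicate 1 the calls of CARS1, EPRS1, GARS1, NARS1 and TARS1 at 1.0 µM ended (adjusted p 0.0585 to 0.0914), so 6 genes were called higher instead of 11, and without DMSO replicate 3 the same 5 ended (0.0518 to 0.111) while PARS2 was called, for 7 in all. The call of NARS1 also ended without 1.0 µM replicate 2 (0.0831) or 3 (0.0726), and that of LARS1 without 1.0 µM replicate 3 (0.0698). At 0.1 µM EPRS1, GARS1 and TARS1 ended without DMSO replicate 1 or 3 or 0.1 µM replicate 1 or 3, and IARS1 without DMSO replicate 1 or 2 or 0.1 µM replicate 1 or 3, which left 4, 5, 4 and 4 called genes without DMSO replicate 1, DMSO replicate 3, 0.1 µM replicate 1 and 0.1 µM replicate 3.

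The other cytosolic and shared genes were not called at either dose. VARS1, for valine, was at 0.17 ± 0.15 at 1.0 µM (95% interval −0.15 to 0.49) and 0.24 ± 0.15 at 0.1 µM. FARSA and FARSB, the catalytic and tRNA-binding subunits of the phenylalanine enzyme, were at −0.26 ± 0.12 (interval −0.52 to −0.01, adjusted p = 0.131 by limma) and 0.04 ± 0.09 (−0.16 to 0.23) at 1.0 µM. HARS1, for histidine, was at −0.10 ± 0.09 (−0.31 to 0.10), RARS1, for arginine, at −0.14 ± 0.11 (−0.37 to 0.10) and KARS1 at −0.05 ± 0.11 (−0.29 to 0.18). These intervals lie below the changes of the 5 strongest risers, and KARS1, which like GARS1 serves both compartments, read 12384, 13241 and 10851 in DMSO, 12113, 10835 and 11749 at 0.1 µM and 11144, 12325 and 11612 at 1.0 µM. At 0.1 µM these 5 genes other than VARS1 ranged from −0.26 (RARS1) to −0.01 (HARS1).

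The cytosolic and shared genes were also counted by whether they are widely reported to respond to ATF4. That set was written from general knowledge with an earlier result for WARS1 known, and it holds AARS1, CARS1, EPRS1, GARS1, IARS1, LARS1, MARS1, NARS1, SARS1, TARS1, VARS1, WARS1 and YARS1. Of its 13 genes 12 were tested, and 11 of the 12 rose at 1.0 µM and 8 at 0.1 µM, with medians of 0.61 and 0.56. VARS1 was the one not called at 1.0 µM. Of all tested genes 12.3% were called higher at 1.0 µM and 6.89% at 0.1 µM. Of the 6 other cytosolic or shared genes 5 were tested, and none was called at either dose by limma (0 higher and 1 lower at an unadjusted p under 0.05 at each dose). Their medians were −0.10 and −0.07. The difference between these sets was not tested. Sorted by other known properties, risers stood on both sides. Of the 7 genes of the multi-synthetase complex 5 were tested and 3 (EPRS1, IARS1 and LARS1) rose at 1.0 µM, as did 8 of the 12 cytosolic or shared genes outside it. By structural class, 5 of 7 tested class I genes and 5 of 9 class II genes, cytosolic or shared, rose at 1.0 µM. EPRS1, which holds a domain of each class, was counted in neither.

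Promoter sequence was examined because ATF4-responsive genes carry a known C/EBP-ATF element, for which the letters TGATGCAA were searched on both strands; this search was chosen with the expression results known. RefSeq windows of 300 bases on GRCh38.p14, from 250 before to 50 after each annotated start, were present for 30 of the 35 genes. AARS2, LARS1, VARS1, VARS2 and YARS1 had no window and were not searched. TGATGCAA was in 0.866% of all 35116 windows and in 0.82% of the tested genes with a window. It was in 6 of 14 cytosolic genes with a window, in 0 of 2 shared genes and in 0 of 14 mitochondrial genes. Of the 9 genes called higher at 1.0 µM that have a window 5 held it, and of the 5 cytosolic or shared genes with a window that were not called 0 held it. The 6 sites are shown because all 6 lie at cytosolic genes, each in the direction of its gene from 5′ to 3′, with the 8 matching bases in capitals and 10 flanking bases on each side.
AARS1 (chr16:70289676-70289703, minus strand): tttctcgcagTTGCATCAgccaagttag
CARS1 (chr11:3057408-3057435, minus strand): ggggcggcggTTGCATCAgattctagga
IARS1 (chr9:92293693-92293720, minus strand): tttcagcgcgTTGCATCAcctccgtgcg
MARS1 (chr12:57488054-57488081, plus strand): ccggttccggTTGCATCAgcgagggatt
NARS1 (chr18:57621805-57621832, minus strand): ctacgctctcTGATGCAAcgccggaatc
TARS1 (chr5:33440957-33440984, plus strand): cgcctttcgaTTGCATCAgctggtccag
Counted from the annotated start, the match begins at base −187 in AARS1, −13 in IARS1, −4 in MARS1, −2 in CARS1, 3 in TARS1 and 15 in NARS1. In NARS1 it reads in the direction of the gene and in the other 5 on the opposite strand. The 5 tested genes among these rose by 0.72 (AARS1), 0.68 (IARS1), 0.55 (CARS1), 0.43 (TARS1) and 0.42 (NARS1) at 1.0 µM, all below WARS1, SARS1 and YARS1. The windows of WARS1, SARS1, EPRS1 and GARS1 did not hold these letters, and the risers YARS1 and LARS1 had no window. With any base at the sixth position (TGATGNAA, which includes TGATGCAA) GARS1 and the mitochondrial gene YARS2 were added, for 8 of 30 genes. These letters were in 2.94% of the tested genes with a window and in 3.62% of all windows. A match is a description of the letters and not a test of binding.

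Mitochondrial synthetases changed little, and the called changes were falls. HARS2 (Entrez gene 23438, chromosome 5, 140691455 to 140699305), for histidine, read 1901, 2162 and 1778 in DMSO, 1812, 1707 and 1650.1 at 0.1 µM and 1404, 1626 and 1391 at 1.0 µM. CARS2 (Entrez gene 79587, chromosome 13, 110641410 to 110713522), for cysteine, read 1154, 1244 and 1136 in DMSO, 1090.1, 1009.6 and 1054 at 0.1 µM and 789, 1098 and 888 at 1.0 µM. IARS2 (Entrez gene 55699, chromosome 1, 220094132 to 220148041), for isoleucine, read 6680.1, 7151 and 6831 in DMSO, 6235, 5814 and 5993 at 0.1 µM and 5316, 5896 and 5390.5 at 1.0 µM. In all 3 genes every 1.0 µM array was below every DMSO array. HARS2 fell at 1.0 µM with a log2 change of −0.40 ± 0.10 (adjusted p = 0.0142 by limma), CARS2 with −0.36 ± 0.12 (0.0461) and IARS2 with −0.32 ± 0.09 (0.0216). At 0.1 µM they were at −0.17 ± 0.10, −0.16 ± 0.12 and −0.20 ± 0.09 and were not called. None of these falls reached 1.5-fold, and all 3 calls ended without DMSO replicate 2, 1.0 µM replicate 1 or 1.0 µM replicate 3 (HARS2 adjusted p 0.0571 to 0.0643). The call of CARS2 ended in 17 of 24 alternative settings.

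WARS2, the mitochondrial tryptophan enzyme gene, read 292, 405 and 297 in DMSO, 368, 314 and 286 at 0.1 µM and 271, 369 and 409 at 1.0 µM. SARS2, for serine, read 1838, 2163 and 2238 in DMSO, 2077, 1732 and 1853 at 0.1 µM and 1868, 1906 and 1733 at 1.0 µM. YARS2, for tyrosine, read 696, 864 and 807 in DMSO, 719, 695 and 622 at 0.1 µM and 662, 788 and 737 at 1.0 µM. For these 3 genes treated and DMSO arrays overlapped at both doses, in contrast to WARS1, SARS1 and YARS1. AARS2, for alanine, read 372, 447 and 412 in DMSO, 363, 339.8 and 345 at 0.1 µM and 366, 412 and 371 at 1.0 µM. EARS2, for glutamate, read 972, 768 and 847 in DMSO, 636, 732 and 688 at 0.1 µM and 712, 699 and 763 at 1.0 µM. PARS2, for proline, read 289, 217 and 357 in DMSO, 323, 374 and 346 at 0.1 µM and 344, 429 and 381 at 1.0 µM. The 0.1 µM arrays of AARS2 and EARS2 were all below their DMSO arrays, while those of PARS2 overlapped DMSO replicate 3 alone. At 1.0 µM the log2 changes of these 6 genes ran from −0.24 ± 0.11 (EARS2, adjusted p = 0.147 by limma) to 0.42 ± 0.17 (PARS2, 0.0993), and none was called. The PARS2 change was 0.16 in the lower spike set (2 arrays against 2) and 0.93 in the higher, where it is 1.0 µM replicate 2 against DMSO replicate 2 alone, the latter being the lowest DMSO array, so no difference between the sets can be read from it. The other 6 tested mitochondrial genes (FARS2, LARS2, MARS2, NARS2, RARS2 and VARS2) ranged from −0.28 (LARS2) to 0.23 (MARS2) at 1.0 µM and from −0.16 (LARS2) to 0.14 (VARS2) at 0.1 µM.

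HARS1 and HARS2 lie head to head, so their starts share one upstream stretch. In the RefSeq windows the start of HARS1 (minus strand) is at chromosome 5 base 140691370 and that of HARS2 (plus strand) at 140691455, with 84 bases between them. The stretch is shown because both genes begin at its ends, on the plus strand of GRCh38.p14.
HARS1 to HARS2 (chr5:140691371-140691454): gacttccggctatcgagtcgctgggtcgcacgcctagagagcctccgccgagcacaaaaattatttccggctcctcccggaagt
Across this stretch HARS1 was at −0.10 ± 0.09 and HARS2 at −0.40 ± 0.10 at 1.0 µM. Relative to the DMSO mean, HARS1 minus HARS2 was −0.10 to 0.06 on the DMSO arrays, 0.08 to 0.20 at 0.1 µM and 0.27 to 0.33 at 1.0 µM, so the 3 groups did not overlap.

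Counterpart enzymes for the same amino acid were then set side by side within each array, as the cytosolic minus the mitochondrial log2 deviation from the DMSO mean. There were 15 such comparisons (EPRS1 was set against both EARS2 and PARS2, and FARSA and FARSB both against FARS2). At 1.0 µM the mean difference was above 0 in 11 of 15, and in 10 the treated arrays all lay above the DMSO arrays; at 0.1 µM these were 12 and 10. For single genes, 19.2% of all those tested had all treated arrays above the DMSO arrays at 1.0 µM and 15.5% at 0.1 µM. No such share was computed for differences between genes, so these shares are not a background for the counts of pairs. WARS1 minus WARS2 was −0.36 to 0.20 in DMSO, 1.47 to 1.98 at 0.1 µM and 1.69 to 2.22 at 1.0 µM. SARS1 minus SARS2 was −0.14 to 0.14, 0.93 to 1.11 and 0.89 to 1.28. CARS1 minus CARS2 was −0.04 to 0.02, 0.45 to 0.77 and 0.88 to 0.93, with no overlap between any of the 3 groups. IARS1 minus IARS2 was −0.12 to 0.24, 0.69 to 0.87 and 0.91 to 1.13, again with no overlap. The mean difference at 1.0 µM was below 0 in 4, at −0.39 for FARSA minus FARS2, −0.09 for FARSB minus FARS2, −0.07 for RARS1 minus RARS2 and −0.05 for VARS1 minus VARS2. Of these, FARSA minus FARS2 alone did not overlap with DMSO, at −0.50 to −0.29 against −0.09 to 0.11. The valine, arginine and FARSB comparisons and EPRS1 minus PARS2 overlapped with DMSO at both doses. With 3 arrays against 3, the exact two-sided permutation test cannot go below p = 0.1, which becomes 0.143 after adjustment over the 30 tests, so no single pair can pass a threshold of 0.05.

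**Figure D3:**
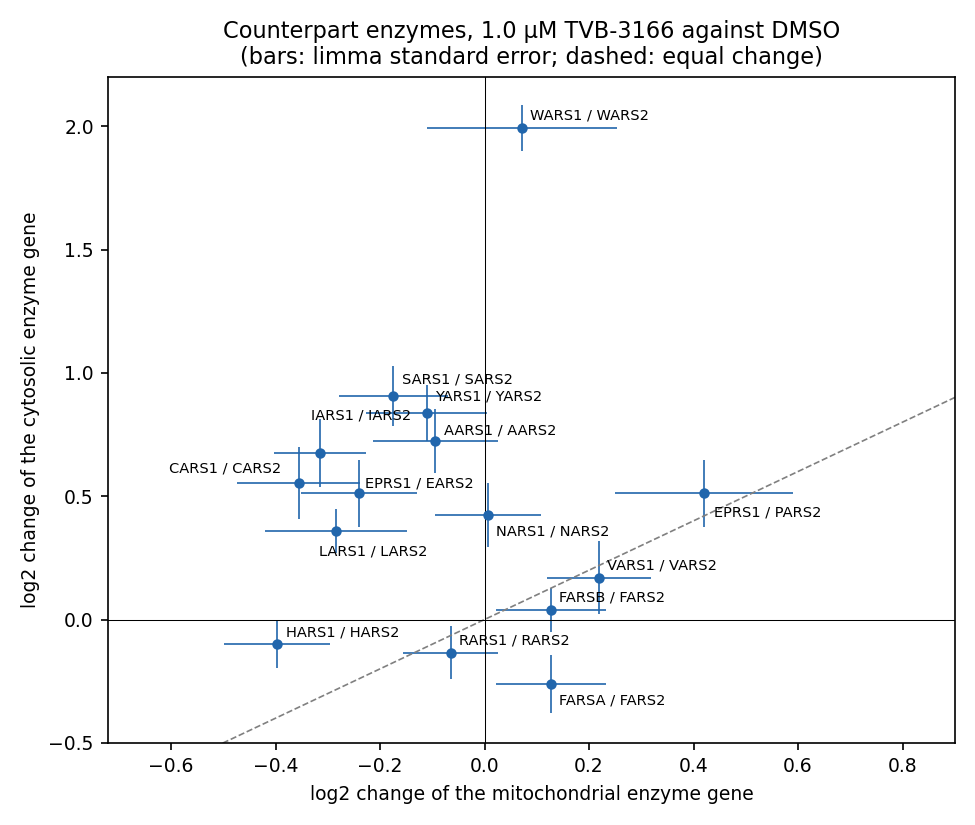
Log2 change at 1.0 µM against DMSO of each cytosolic enzyme gene (y axis) against that of the mitochondrial enzyme gene for the same amino acid (x axis), with limma standard errors (n = 3 arrays per group) and a dashed line of equal change. WARS1/WARS2 stands highest at 1.99 and 0.07, most pairs lie above the line, and the FARSA/FARS2 point (−0.26 and 0.13) lies below it.

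Array by array, the median deviation over the 15 tested cytosolic genes was −0.03, 0.01 and −0.03 in DMSO, 0.56, 0.23 and 0.51 at 0.1 µM and 0.35, 0.62 and 0.40 at 1.0 µM. Every treated array was above every DMSO array. Over the 15 mitochondrial genes it was −0.04, 0.06 and −0.02 in DMSO, −0.10, −0.09 and −0.20 at 0.1 µM and −0.15, 0.01 and −0.10 at 1.0 µM, so that 1.0 µM replicate 2 lay among the DMSO arrays. No p is given for these medians because the members were chosen with results known. The cytosolic medians tracked the spike sets, the 3 treated arrays of the higher set being at 0.51 to 0.62 and the 3 of the lower set at 0.23 to 0.40, a link that was not tested. In the lower set 2 DMSO arrays stand against 2 at 1.0 µM and 1 at 0.1 µM, and in the higher set 1 DMSO array stands against 1 at 1.0 µM and 2 at 0.1 µM, so the higher-set values have no replicate of DMSO and are given as values only. Within the lower set the median cytosolic change was 0.42 at 1.0 µM and 0.28 at 0.1 µM, and within the higher set 0.49 and 0.44. WARS1 was at 1.95 and 2.08 at 1.0 µM in the lower and higher sets and at 1.89 and 1.73 at 0.1 µM. GARS1 was at 0.57 and 0.88, AARS1 at 0.58 and 1.00 and IARS1 at 0.53 and 0.97 at 1.0 µM. Chosen after their values were seen, VARS1 was at 0.01 and 0.49, RARS1 at −0.23 and 0.06 and CARS2 at −0.45 and −0.18 at 1.0 µM. In the lower set alone limma called 2 genes higher at 0.1 µM, WARS1 and SARS1, instead of 8.

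**Figure D4:**
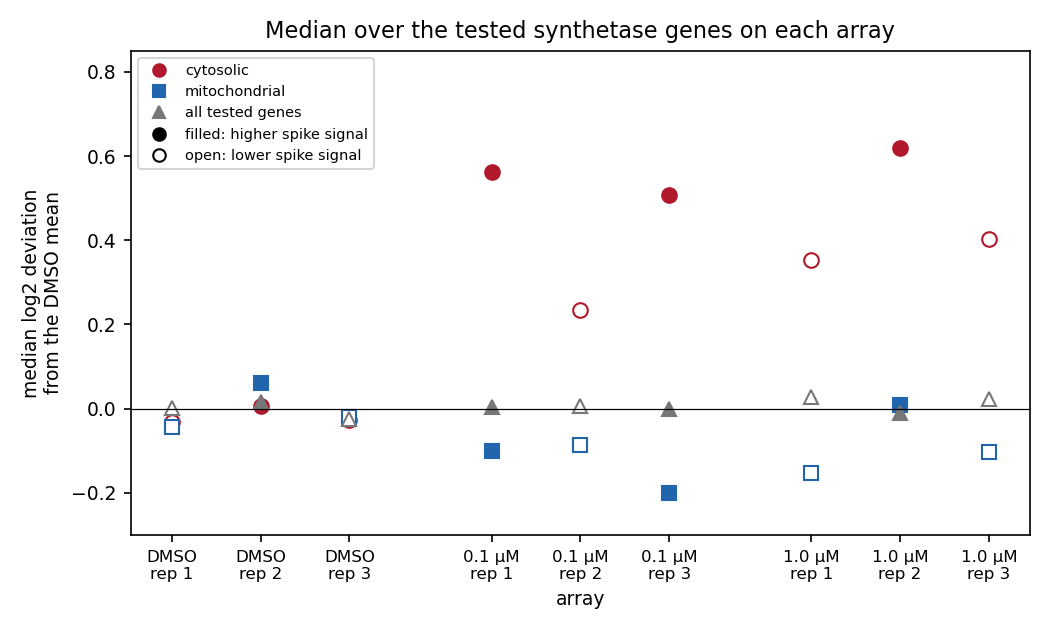
Median log2 deviation from the DMSO mean (y axis) over the tested cytosolic genes (circles), mitochondrial genes (squares) and all tested genes (triangles) on each of the 9 arrays (x axis), filled where the hybridisation spike signal was in the higher set. Cytosolic medians are 0.23 to 0.62 on the 6 treated arrays, with the filled ones highest, while mitochondrial medians stay between −0.20 and 0.06 on all 9 arrays.

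No synthetase gene was called between the doses. Between 1.0 and 0.1 µM limma called 0 of the 32 genes, where 0.387% of all genes were called higher and 0.430% lower, and 2 members passed an unadjusted p under 0.05 (WARS1 and HARS2). The difference was 0.24 ± 0.09 for WARS1 (adjusted p = 0.321) and −0.23 ± 0.10 for HARS2 (0.394). The arrays of the doses did not overlap for 4 genes, with WARS1, LARS1 and AARS2 higher at 1.0 µM (9.73% of all genes were) and HARS2 lower (8.73%). The comparisons of each dose with DMSO share their DMSO arrays. CARS1, LARS1 and NARS1, called higher at 1.0 µM and not at 0.1 µM, differed between doses by 0.09 ± 0.15, 0.18 ± 0.09 and 0.04 ± 0.13.

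Second probe sets were compared with the one that stood for the gene. Of 58 member probe sets above the filter, fitted together with all 26873 such probe sets, 18 of 30 cytosolic and 1 of 3 shared ones were called higher at 1.0 µM and none lower, against 10.1% of all probe sets higher and 9.77% lower. At 0.1 µM 13 of 30 and 1 of 3 were called higher and none lower, against 5.19% and 4.07%. Of the 25 mitochondrial probe sets 0 were called higher and 2 lower (HARS2 and IARS2) at 1.0 µM. The 3 probe sets of EPRS1 were all called and spread from 0.51 to 0.60, and the 4 of LARS1 spread from 0.31 to 0.38 with 2 of them called. Those of WARS1 were at 1.54 and 1.99, those of SARS1 at 0.87 and 0.91 and those of YARS1 at 0.65 and 0.84. CARS1 depended on the probe set, with 3 called between 0.55 and 0.97 at 1.0 µM and a dim one at −0.14, and at 0.1 µM with 2 called by limma at 0.94 (adjusted p = 0.00154) and 0.92 (0.0074) beside 0.47 for the one that stood for the gene. The second TARS1 probe set was at 0.44 at 1.0 µM and 0.03 at 0.1 µM and was not called, and with the mean of both probe sets TARS1 was at 0.25 at 0.1 µM and lost its call (adjusted p = 0.0665). GARS1 and IARS1 each rest on 1 probe set of a kind that can also bind related transcripts. All 3 probe sets of EPRS1, all 4 of LARS1 and the 2 of CARS1 called at 0.1 µM are of that kind too.

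Genes around the synthetases moved in part with them. Of 7 listed genes of uncharged tRNA sensing and the ATF4 step 4 rose and 1 fell at 1.0 µM: ATF4 rose by 0.83 ± 0.14, and its dimerisation partners CEBPG and CEBPB by 1.47 ± 0.12 and 1.17 ± 0.14. IMPACT, an inhibitor of GCN2 activation, rose by 0.31 ± 0.08, and GCN1, the ribosome-bound activator of GCN2, was the faller at −0.36 ± 0.10. EIF2AK4, which encodes GCN2, was at 0.06 ± 0.11 and was not called. Of 15 ATF4 targets outside the synthetases 13 rose at each dose, with a median of 1.41 at 1.0 µM against 0.61 for the reported ATF4-responsive synthetases. Over all tested genes 12.3% were called higher and 11.0% lower at 1.0 µM, and 6.89% higher at 0.1 µM. Both lists were chosen with earlier results of these data known, and the difference in medians was not tested. SLC7A11 (2.42), the cystine transporter gene, TRIB3 (2.02), a pseudokinase gene, SLC3A2 (1.51), which encodes the heavy chain of amino acid transporters, and DDIT3 (1.66), a stress transcription factor gene, had the smallest p of that list.

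In tRNA export and editing 1 of 5 tested genes rose at 1.0 µM, XPOT, the nuclear exporter of tRNA, at 0.80 ± 0.12 (0.67 at 0.1 µM), while DTD1, which clears D-amino acids from tRNA, rose at 0.1 µM (0.44) and was at 0.31 at 1.0 µM. Of the complex scaffold genes 1 was tested, AIMP1, at 0.26 ± 0.11 (adjusted p = 0.0977 by limma). Of 6 tested genes of translation elongation in either compartment 1 rose at 1.0 µM, GFM1 (0.35 ± 0.10), whose product moves the mitochondrial ribosome along its message and does not deliver charged tRNA, and of 4 that convert mischarged or initiator tRNA in mitochondria 1 rose, QRSL1 (0.36 ± 0.08), a subunit of the amidotransferase that makes glutaminyl-tRNA. Of the 2 selenocysteine genes SEPSECS rose by 0.51 ± 0.16. Each of these lists holds few genes and had 1 or no riser, where 12.3% of all genes were called higher at 1.0 µM, so nothing is read from their counts. Of 12 mitochondrial ribosome genes none was called at either dose by limma (0 higher and 1 lower at an unadjusted p under 0.05), with medians of 0.02 at 1.0 µM and −0.03 at 0.1 µM, near those of all genes.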

How the data were processed

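The intensity values are MAS5 signals per probe set, deposited by the authors on a linear scale; MAS5 is named in the submitters' processing notes, with no version there, and the labels name Partek for the authors' analysis. Each of the 9 arrays had a 2% trimmed mean near 500.06, so the values are scaled to one level per array; their number limits the precision. The control probe sets (62) were left out. Of the others 41091 carried 1 gene symbol in the platform annotation (41037 updated by Entrez identifier), 1801 several and 11721 none, and only the first kind was used. Signals were turned into log2(signal + 16), probe sets under the 40th percentile of mean signal (38.95) were dropped, and the probe set with the highest mean stood for a gene, which left 13948 genes. A 3-group model was fitted to all 9 arrays with limma 3.58.1 (R 4.3.3; eBayes with trend) and Benjamini-Hochberg adjustment covered every gene tested; the script was tested on simulated data. Counterpart differences were tested by exact two-sided permutation. Promoter windows, sites and gene coordinates came from RefSeq on GRCh38.p14.

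The members and lists were chosen with earlier results of these data known. All members are accounted for. Array signals are given for the 8 cytosolic or shared members with the largest called change at 1.0 µM, their mitochondrial counterparts and every called mitochondrial member, and up to 4 genes with the smallest p at 1.0 µM are named per context list. KARS1, LARS1, EIF2AK4, IMPACT, DTD1 and the epithelial and prostate markers outside that rule were chosen after their values were seen. Alternatives covered the pseudocount, filter, scaling, probe-set choice, model settings, spike sets, replicate number, fold and each array left out.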

Additional observations from a re-analysis of the deposited data

How the results depend on the processing

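Of 22 called member results 7 were called in every one of up to 24 alternatives in which they were tested (WARS1 and SARS1 at both doses, YARS1, AARS1 and IARS1 at 1.0 µM), 15 lost the call in at least 1 and 0 reversed. Of the 42 not called, 8 were called in at least 1. Genes called higher at 1.0 µM, 11 as reported, numbered 7 without probe sets that can bind related transcripts (26 members tested) and 6 with a fold of at least 1.5 required as well. With array weights the mitochondrial gene PARS2 was also called higher at 1.0 µM (0.42, adjusted p = 0.0325 by limma). Genes called lower at 1.0 µM, 3 as reported, numbered 1 with median centring, 5 with array weights (FARSA and LARS2 added) and 0 with the fold. Genes called higher at 0.1 µM, 8 as reported, numbered 5 without such probe sets and 2 in the lower spike set alone, where the cytosolic median was 0.28. Genes called lower at 0.1 µM, 0 as reported, numbered 2 with quantile normalization (IARS2 and RARS1), 1 with array weights (EARS2) and 1 with the spike set as a block (IARS2). Between doses array weights gave 2 higher (LARS1 and WARS1) and 2 lower (CARS2 and HARS2). For these the cause was not tested, apart from fewer members or arrays entering.

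Leaving out each array in turn gave 6 to 11 genes higher and 0 to 3 lower at 1.0 µM, 4 to 10 higher and 0 lower at 0.1 µM, and 0 between doses in either direction. The medians ran from 0.37 to 0.50 (cytosolic, 1.0 µM), 0.37 to 0.56 (cytosolic, 0.1 µM), −0.15 to −0.04 (mitochondrial, 1.0 µM) and −0.17 to −0.10 (mitochondrial, 0.1 µM).

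Nothing says whether same-numbered replicates were handled together. Their deviations correlated at −0.34 to 0.22 over 9 pairs of arrays, which cannot settle it. With the replicate number as a block 9 genes were called higher at 1.0 µM (NARS1, adjusted p = 0.0844, and TARS1, 0.0526, by limma lost the call), 1 lower at 1.0 µM (HARS2) and 5 higher at 0.1 µM.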
